A study of Homo sapiens with 6 samples.

Results

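The genes EGFR, ERBB2, ERBB3, ERBB4, ALK, RET, MET and KIT encode receptor tyrosine kinases, and the sites of thymidine glycol (Tg, an oxidised thymidine) in and around them are described here. A site was assigned to a gene when its midpoint lay in the gene or within 50 kb of either end, with gene limits from a RefSeq table of GRCh38.p14. The 8 genes were chosen from the counts of sites in these same lists, so the number of sites at each gene is a description and was not tested. They held 7 of the 3688 sites listed in wild-type cells and 12 of the 9373 sites listed in double-knockout cells.

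The sites came from HEK293T, a human embryonic kidney cell line, mapped by DPC-Seq. In this method NTHL1, a DNA glycosylase that removes Tg, is fixed to the DNA at the removed base, and the bound fragments are enriched and sequenced. Of 6 samples, 2 were labelled libraries of the wild type, 2 were labelled libraries of cells with the genotype NTHL1-/-,NEIL1-/-, and 2 were unlabelled inputs, 1 of each genotype. NEIL1 is another glycosylase for oxidised bases. No group received any other treatment, and whether the knockout line is 1 clone is not given in the sources used here. For each genotype 1 list of sites was deposited, which leaves no spread between libraries for any value, and no comparison between the genotypes has a replicate check or a p-value. Total reads per library are unknown. Since the lists mark DNA and not transcripts, they do not show whether the cells express a receptor.

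A receptor tyrosine kinase spans the cell membrane, binds a ligand outside the cell and phosphorylates tyrosines inside it. The phosphorylated receptor recruits adaptor proteins, which pass the signal to RAS and MAP kinase, PI3 kinase and STAT proteins. EGFR is the receptor of epidermal growth factor, and ERBB2, ERBB3 and ERBB4 are its relatives. ALK is bound by the ALKAL proteins and acts mainly in the developing nervous system. RET is bound by the GDNF family together with GFRA co-receptors, MET by hepatocyte growth factor, and KIT by stem cell factor.

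EGFR carried 5 wild-type and 5 double-knockout sites, ALK carried 2 and 4, ERBB2 carried 0 and 2, and ERBB3 carried 0 and 1. ERBB4, RET, MET and KIT carried none in either list. A site in the gene or within 50 kb was found at 2 of the 8 genes in wild type, against 18.9% of the 20037 protein-coding genes, and at 4 of the 8 in the double knockout, against 39.8%. Of the wild-type sites all 7 lay inside the body of 1 of the 8 genes, and of the double-knockout sites 11 did. The site nearest to the 50 kb limit on its inner side was 45.0 kb from ERBB2, and the nearest on its outer side was a double-knockout site 55.1 kb from KIT. All 8 windows together spanned 3211 kb, for which the rates of their chromosomes would give 3.64 wild-type sites (7 listed, exact 95% Poisson interval 2.81 to 14.4) and 8.78 double-knockout sites (12 listed, 6.20 to 21.0). The intervals here and below cover counting error only, since how PCR copies were handled is not given in the sources used here and each genotype has 1 list.

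EGFR (chromosome 7, 55019017 to 55211628, gene ID 1956) held 5 places that overlapped between the lists. Each of its 5 wild-type sites overlapped 1 double-knockout site by at least 1 bp, and no further site lay within 50 kb of the gene. The overlap covered at least 50% of both sites at 3 of the 5 places. At sites 4 and 5 it covered 49.8% and 43.1% of the wider double-knockout site. Numbered 1 to 5 in the direction of transcription, the sites lay 25.4%, 39.9%, 76.8%, 95.7% and 96.5% of the way through the gene in wild type. Whether they fall in an exon or an intron was not analysed here, since the table gives gene limits only. Wild-type site 1, at 55067822 to 55068064, was 243 bp wide, the narrowest width in the wild-type list, with a fold enrichment of 5.22. Its double-knockout partner at 55067797 to 55068128 had a fold of 5.01. Fold enrichment is the authors' ratio of reads at the summit to the background of the peak caller.

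Site 2 was the strongest of EGFR in the double knockout. It lay at 55095679 to 55096002 in wild type with a fold of 5.36, and at 55095652 to 55096043 in the double knockout with a fold of 9.26, where its q ranked 256 of 9373. Site 3 was the widest, 706 bp in wild type (55166514 to 55167219, fold 6.54) and 1013 bp in the double knockout (55166647 to 55167659, fold 5.42). Site 4 was the strongest of EGFR in wild type, at 55203082 to 55203460, with a fold of 8.58 and rank 203 of 3688. In the double knockout site 4 (55203164 to 55203759) had a fold of 5.68 and ranked 3253.

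Site 5 stood close behind site 4, near the 3′ end of the gene. It lay at 55204680 to 55205011 in wild type, with a fold of 3.45 and a rank of only 3535. In the double knockout it lay at 55204269 to 55204990, with a fold of 5.82 and a rank of 1373. The edges of sites 4 and 5 were 1219 bp apart in wild type and only 509 bp apart in the double knockout. Of all wild-type sites 15.3%, and of all double-knockout sites 10.7%, had another site of their list with its midpoint within 2 kb. Counting sites within 10 kb of each other once, EGFR had 4 in each list.

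**Figure D1:**
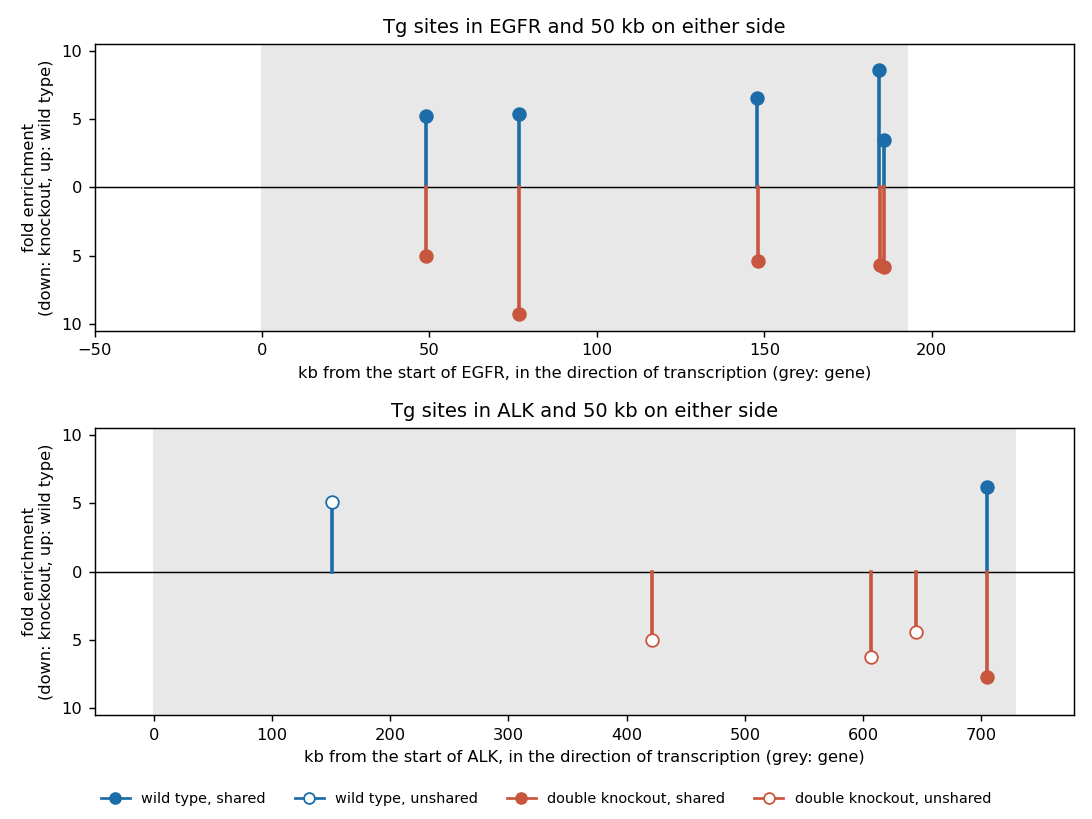
Positions of Tg sites along EGFR and ALK, in kb from the start of the gene, against the authors' fold enrichment (wild type upward, double knockout downward; filled points overlap a site of the other list). All 5 EGFR sites of each list overlap a site of the other, while ALK has 1 shared place near its 3′ end and 4 unshared sites.

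Reads at the summit were recovered from the deposited fold enrichment and −log10 p, and double-knockout reads were divided by 1.69, the ratio of the lowest backgrounds of the lists, to bring them to wild-type depth. At the EGFR sites, in the order of position, the wild-type list had 12, 15, 15, 20 and 11 reads. The double-knockout list had 14, 30, 26, 18 and 28 reads, which scaled to 8.27, 17.7, 15.4, 10.6 and 16.5. The scaled reads were higher in the double knockout at sites 2, 3 and 5 and lower at sites 1 and 4. The lowest double-knockout to wild-type ratio was 0.532 at site 4 (exact conditional binomial 95% interval 0.265 to 1.06). The highest was 1.504 at site 5 (0.726 to 3.35). The interval held 1 at each of the 6 shared places of EGFR and ALK, so no single place had a difference detectable at this depth. Summed over EGFR, 73 wild-type reads stood against 68.5 scaled double-knockout reads, a ratio of 0.939 (0.695 to 1.28). Over all 2776 shared wild-type sites the median ratio was 0.940, with quartiles of 0.779 and 1.13.

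The summits of paired EGFR sites were 76, 42, 222, 8 and 93 bp apart, against a median of 91 bp over all shared sites (quartiles 33.8 and 203). Pair 3, made of the 2 widest sites, had the most distant summits of EGFR. Pair 4 had summits 8 bp apart but differed most in fold towards wild type. Fold enrichment also moves with the background, which at EGFR was 1.96 to 3.35 times the lowest of the list in wild type and 1.59 to 3.18 times in the double knockout. The medians over all sites were 2.35 and 2.12 times. Wild-type site 5, with the lowest fold, had the highest of these backgrounds.

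**Figure D2:**
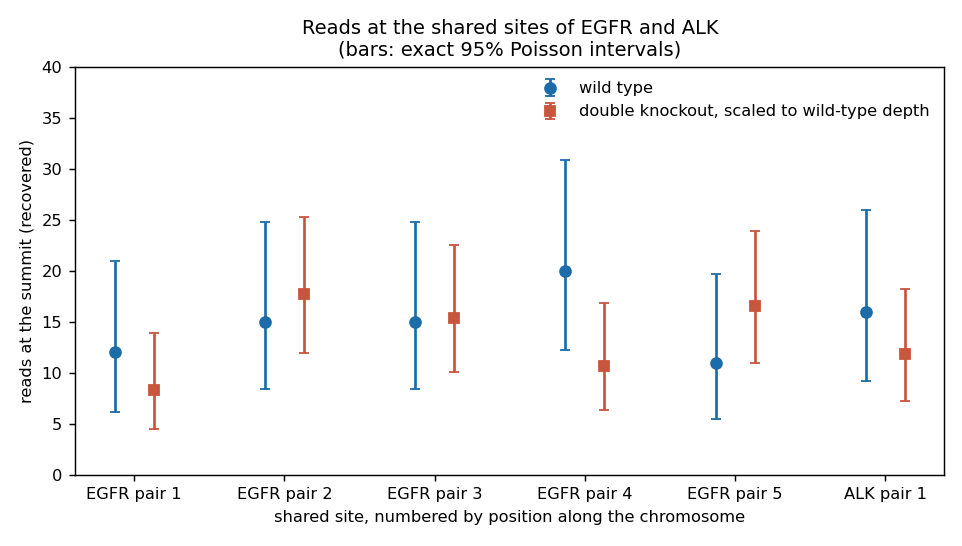
Reads at the summit of the 6 shared places, with wild-type reads as circles and double-knockout reads divided by 1.69 as squares; bars are exact 95% Poisson intervals. The intervals of the genotypes overlap at each place, and the order of the genotypes is not the same from place to place.

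With 5 sites over 193 kb, EGFR had 2.60 sites per 100 kb of gene in each list. At least 5 sites in the gene body were found in 31 protein-coding genes in wild type, or 0.155%, and in 111 in the double knockout, or 0.554%. Among the 2960 protein-coding genes of 0.5 to 2 times the length of EGFR, 13 had as many wild-type sites and 47 as many double-knockout sites, and the sites per 100 kb of those genes as a whole were 0.121 and 0.331. At the rate of chromosome 7 the window of EGFR would hold 0.412 sites in wild type and 0.873 in the knockout. The listed sites were 12.1 times (3.94 to 28.3) and 5.73 times (1.86 to 13.4) those numbers. With 5 Mb at each chromosome end left out of the rate, the window would hold 0.271 and 0.677 sites, and the listed sites were 18.5 times (5.999 to 43.1) and 7.39 times (2.40 to 17.2) those. As the gene was chosen from these counts, the intervals are not a test. In 18 of the 31 genes with at least 5 wild-type sites the double knockout listed more sites than the wild type, in 6, EGFR among them, as many, and in 7 fewer. These genes were picked by high wild-type counts, which tilts the comparison towards wild type. They are therefore no fair reference for the equal counts of EGFR.

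ALK (chromosome 2, 29192774 to 29921586, gene ID 238) is 729 kb long and is transcribed towards lower coordinates. It held 2 wild-type and 4 double-knockout sites, all inside the gene, and 1 place was shared. The shared place lay near the 3′ end of the gene, 96.7% of the way through it. There the wild-type site at 29216664 to 29217275 had a fold of 6.21 and 16 reads, and the double-knockout site at 29216534 to 29217263 had a fold of 7.74 and 20 reads, or 11.8 at wild-type depth (ratio 0.739, 0.364 to 1.52). It was the strongest site of ALK in each list, with ranks of 885 and 1259. The sites overlapped by 600 bp, but their summits were 445 bp apart, the largest distance among the 6 shared places. An alternative start of ALK in the RefSeq promoter table lay 6.85 kb from the midpoint of the wild-type site.

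The other ALK sites were listed in 1 genotype each. The wild-type site at 29770821 to 29771147 (fold 5.12, 13 reads) lay 20.7% of the way through the gene, and the nearest double-knockout site was 271 kb away. Scaled to double-knockout depth its reads came to 22.0 (11.7 to 37.6). With the median background of the ALK sites in the double knockout, 1.71 reads, 7 reads reach the lowest −log10 p of that list. That background is of listed sites only, and the background at this place is unknown. The part of depth in the site's absence from the double-knockout list was not tested.

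The unshared double-knockout sites of ALK lay further along the gene, between 57.9% and 88.4% of its length. They were at 29499477 to 29499949 (fold 5.01, 12 reads), 29314372 to 29314654 (fold 6.22, 16 reads) and 29276957 to 29277248 (fold 4.44, 11 reads). Scaled to wild-type depth they had 7.09, 9.45 and 6.50 reads. With the median background of the ALK sites in wild type, 1.74 reads, 8 reads reach the lowest −log10 p of the wild-type list. Of the 3 sites, then, 1 was above that number and 2 were below it, and the counting interval of each (3.24 to 11.6 for the lowest, 5.40 to 15.4 for the highest) holds 8. Distances to the nearest wild-type site were 271, 97.5 and 60.1 kb.

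Per 100 kb of gene ALK had 0.274 sites in wild type and 0.549 in the knockout, below EGFR in each list. Its window would hold 0.866 and 2.19 sites at the rate of chromosome 2, and the listed sites were 2.31 times (0.280 to 8.34) and 1.83 times (0.498 to 4.68) those numbers. Of 555 protein-coding genes of 0.5 to 2 times its length, 10.8% had at least 2 wild-type sites in the gene and 12.6% at least 4 double-knockout sites. From wild type came 5 of the 10 EGFR sites (50.0%) and 2 of the 6 ALK sites (33.3%), against 28.2% of the lists as a whole. A shared place adds 1 site to each list, so these sites are not independent counts and no interval is given. At EGFR all 5 places were shared, which sets its share at 50.0%.

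The relatives of EGFR had few sites or none. ERBB2, which has no known ligand and signals as a partner of the others (chromosome 17, 39688094 to 39728658), had no wild-type site. In the double knockout it had 1 site in the gene, at 39720104 to 39720379, 79.2% of the way through it, with a fold of 4.77 and 13 reads. A second double-knockout site of its window, at 39642953 to 39643219, had a fold of 5.01 and 20 reads and lay in the neighbouring gene STARD3, which encodes a cholesterol-binding protein of endosomes. At wild-type depth these sites would have 7.68 and 11.8 reads. The nearest wild-type site lay 99.5 kb from ERBB2.

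ERBB3, whose kinase domain has little activity of its own (chromosome 12, 56080108 to 56103505), held 1 double-knockout site at 56084076 to 56084353, 4.11 kb from the lower-coordinate end of the gene. It had 12 reads, 7.09 at wild-type depth, a fold of 3.83 and a rank of 8294, the lowest rank of the 12 double-knockout sites. The nearest wild-type site lay 337 kb from the gene. None of the 3 sites at ERBB2 and ERBB3 overlapped a wild-type site. At the rates of their chromosomes these windows would hold 0.228 and 0.147 wild-type and 0.547 and 0.397 double-knockout sites.

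ERBB4, a receptor of neuregulins, is the longest of the 8 genes at 1163 kb (chromosome 2, 211375717 to 212538802) and held no site in either list. At the rate of chromosome 2 its window would hold 1.32 sites in wild type and 3.34 in the knockout, and the exact 95% Poisson interval of a count of 0 ends at 3.69. The nearest sites lay 3560 kb away in wild type and 3349 kb away in the double knockout, so the gene stood in a long stretch without listed sites. Of 227 protein-coding genes of 0.5 to 2 times its length, 29.1% held a wild-type and 55.9% a double-knockout site.

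MET (chromosome 7, 116672196 to 116798377) stood in a long stretch without wild-type sites, with the nearest 6020 kb away. The nearest double-knockout site was closer, 638 kb away. MET is on the same chromosome as EGFR. RET (chromosome 10, 43077069 to 43130351) held no site, but a strong shared one lay 94.9 kb away in RASGEF1A, at 43225001 to 43225541 in wild type with a fold of 7.42 and 23 reads. The double-knockout partner had a fold of 6.32 and 33 reads. KIT (chromosome 4, 54657957 to 54740715) had its nearest sites 153 kb away in wild type and 55.1 kb away in the double knockout. For RET, MET and KIT the chromosome rates would give between 0.107 and 0.675 sites per window, too few for a count of 0 to be informative.

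**Figure D3:**
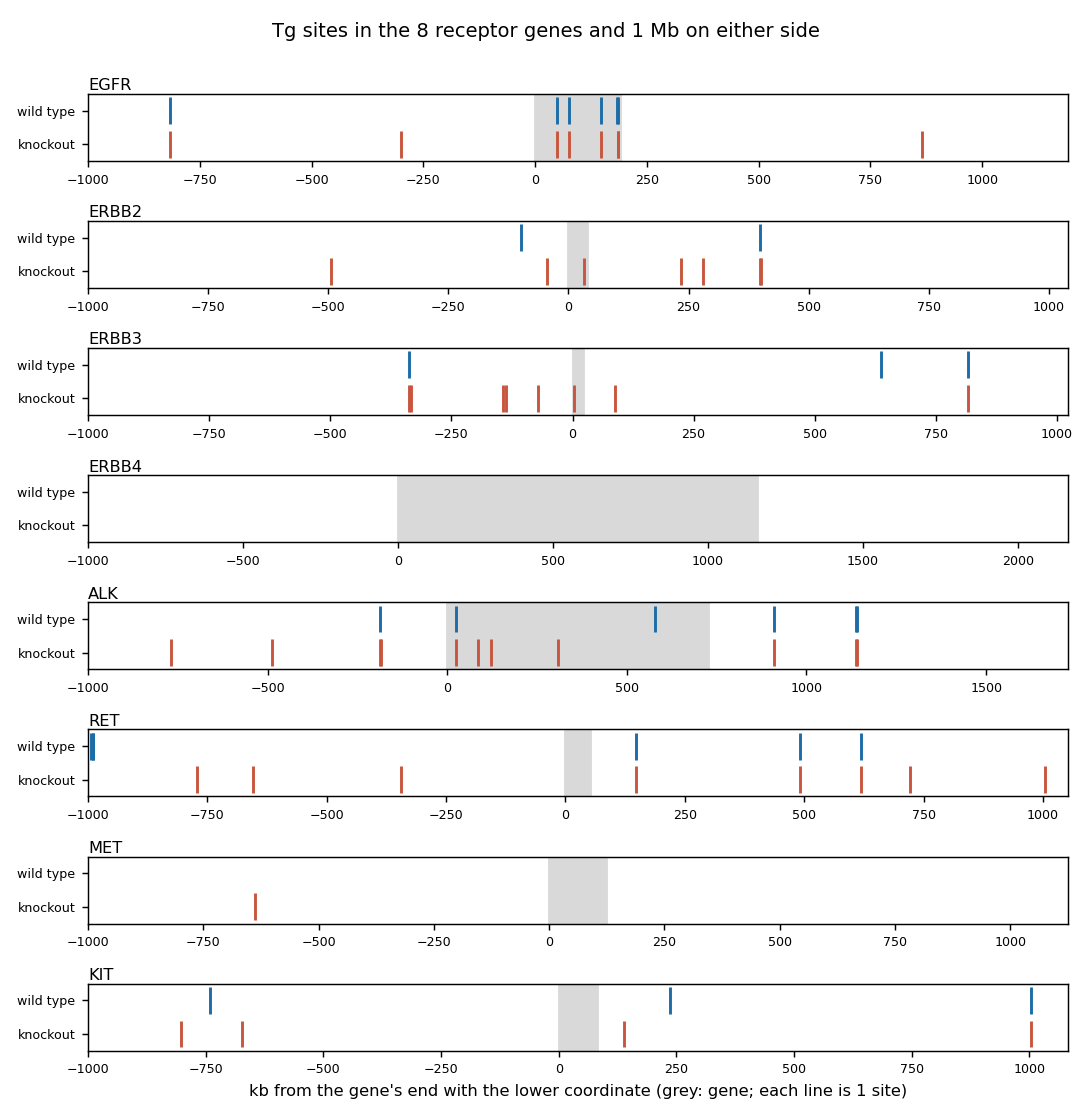
Tg sites in each of the 8 genes (grey) and 1 Mb on either side, 1 line per site, with wild type above and double knockout below, in kb from the lower-coordinate end of the gene. EGFR holds 5 sites per list with few around it, ERBB4 has none in the gene or either flank, and MET has 1 double-knockout site in its flanks.

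The sites around EGFR were concentrated in the gene itself. Within 500 kb on either side lay 0 wild-type sites and 1 double-knockout site, and within 1 Mb lay 1 and 3. Per 100 kb the wild-type list had 0.05 sites in the flanks of 1 Mb and the knockout list 0.15, against 2.60 in the gene. EGFR was chosen from its counts and its flanks were not, so this contrast is a description and was not tested. Around ALK the order of gene and flanks turned with the width taken. Its flanks of 500 kb held 4 and 6 sites, or 0.4 and 0.6 per 100 kb, above the 0.274 and 0.549 in the gene. Its flanks of 1 Mb held 4 and 7, or 0.2 and 0.35 per 100 kb, below those in the gene. Around ERBB2 and ERBB3 the double knockout listed 6 sites each within 500 kb, and the wild type 2 and 1.

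The strength of the sites at the 8 genes was near that of the lists. Fold enrichment ran from 3.45 to 8.58 in wild type with a median of 5.36 (5.12 over the list), and from 3.83 to 9.26 in the double knockout with a median of 5.22 (4.93 over the list). Reads ran from 11 to 20 with a median of 15 in wild type (13 over the list), and from 11 to 30 with a median of 17 in the double knockout (17 over the list). Of the wild-type sites 6 of 7 were shared (85.7%, 42.1% to 99.6%), against 75.3% of the list. Of the double-knockout sites 6 of 12 were shared (50.0%, 21.1% to 78.9%), against 28.3%. Without EGFR 1 of 2 wild-type sites was shared, or 50.0%, and 1 of 7 double-knockout sites, or 14.3%. Counting only overlaps of at least 50% of both sites, 57.1% of the wild-type and 33.3% of the double-knockout sites were shared. Shared double-knockout sites had a median fold of 5.75 and unshared ones 4.89. Of the 6 shared ones 5 were at EGFR and all unshared ones at other genes, so this mostly sets EGFR against the others.

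The 58 receptor tyrosine kinase genes of the human genome place the 8 in their wider family. A site in the gene or within 50 kb was listed at 20 of the 58 in wild type (34.5%, against 18.9% of all protein-coding genes) and at 32 in the double knockout (55.2%, against 39.8%). Inside the gene body the numbers were 10 (17.2%, against 5.88%) and 20 (34.5%, against 14.0%). The 58 genes had a median length of 75.9 kb, against 24.1 kb over all protein-coding genes, and the part of length in these shares was not tested. Both lists had a site at 19 of the 58 genes, against 16.8% of all protein-coding genes, and neither list at 25, against 58.2%. The median gene had 0 wild-type sites and 1 double-knockout site.

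EGFR had the most sites of the 58 genes with both lists summed, 10. Each of its 5 shared places counts in each list there, so the sum favours genes with shared sites. With a shared place counted once, EGFR had 5 places, and ROR2, EPHA1 and NTRK3 each had more. In the double-knockout list alone ROR2 had 6 sites against 5 at EGFR. Per 100 kb of gene EGFR ranked 4 with 5.19 over both lists, behind AXL with 14.1, LMTK3 with 7.04 and EPHA10 with 5.85. These are counts of few sites. The density of AXL was 2.72 times that of EGFR, with an exact conditional binomial interval of 0.811 to 8.25. The intervals between neighbours in this order also hold 1. All of them take the sites as independent, though shared places count in both lists, so they may be too narrow. ROR2, a receptor of WNT5A, followed EGFR in number with 2 wild-type and 6 double-knockout sites. AXL, a receptor of GAS6, EPHA1, an ephrin receptor, and NTRK3, a receptor of a neurotrophin, had 2 and 5 each. The sites of EPHA1 lay outside the gene.

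More wild-type than double-knockout sites were listed at 3 of the 58 genes, against 3.01% of all protein-coding genes. FGFR1, a fibroblast growth factor receptor, had 3 and 2, and the ephrin receptor genes EPHB1 and EPHA2 had 2 and 1, and 2 and 0. Inside the gene body FGFR1 had 0 and 1, EPHB1 2 and 1, and EPHA2 0 and 0. By family, each of the 3 insulin receptor genes had a site in each list, and 2 of the 3 had one inside the gene body in each. All sites of the third also lie in the window of another of the 58 genes. None of the 5 genes of the PDGF receptor family, to which KIT belongs, had a site in either list, and neither MET nor its relative MST1R did. In that family 2 genes adjoin and their windows overlap. Over all protein-coding genes 16.8% had a site in both lists and 58.2% in neither, and no family was tested against these shares. Of the 14 ephrin receptor genes 7 had a wild-type and 8 a double-knockout site, against 18.9% and 39.8% of all protein-coding genes. LTK, the closest relative of ALK, had 1 double-knockout site, which also lies in the window of TYRO3.

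**Figure D4:**
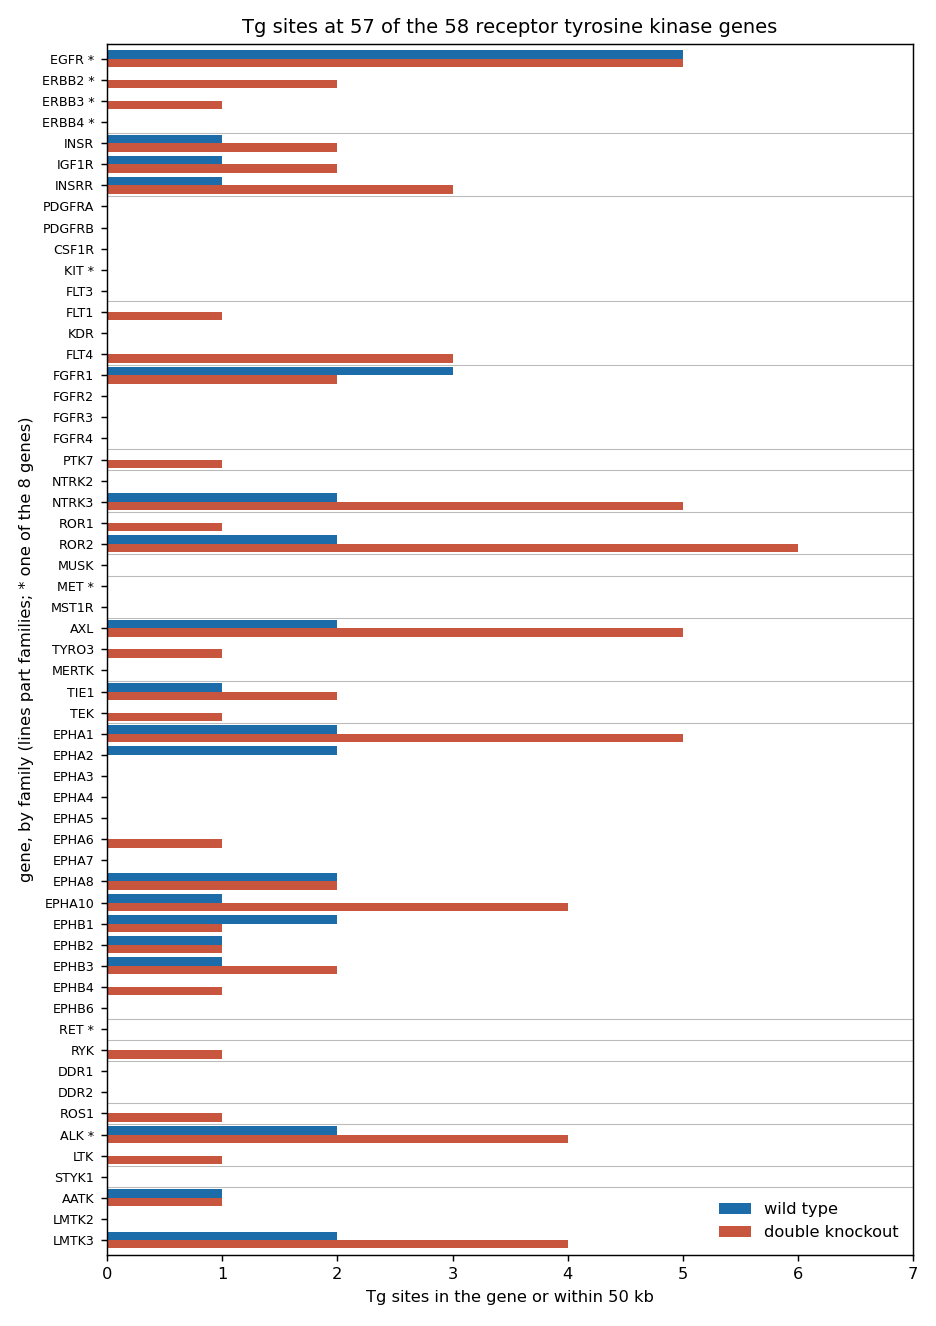
Tg sites in each of 57 of the 58 receptor tyrosine kinase genes or within 50 kb, in wild type and double knockout, with the 8 genes marked by an asterisk. EGFR has 5 in each list, ROR2 has 2 and 6, and 25 genes have none in either list, as have 58.2% of all protein-coding genes.

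The other genes of these pathways were taken from a list of ligands, co-receptors, adaptors, effectors and negative regulators. Of its 69 genes, 10 had a wild-type site (14.5%, against 18.9% of all protein-coding genes) and 24 a double-knockout site (34.8%, against 39.8%). Inside the gene body the order turned, with 6 genes (8.70%, against 5.88%) and 14 genes (20.3%, against 14.0%). These 69 genes had a median length of 75.1 kb, against 24.1 kb over all protein-coding genes, and the part of length was not tested. Among 19 ligands 3 had a wild-type and 7 a double-knockout site. ARTN, a RET ligand, had the most of the whole list with 0 and 7, all in the flanks of this 3.44 kb gene. Among the 4 GFRA co-receptors of RET 2 had a site in each list, with 2 and 3 at GFRA2.

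Of 11 adaptors 0 and 3 had a site (0% and 27.3%), and of 12 negative regulators 1 and 1 (8.33% each). Of 23 effectors 4 and 11 did (17.4% and 47.8%), with 1 and 4 sites at STAT5B, 1 and 3 at ARAF, and 2 and 2 at MAP2K2. Over all protein-coding genes 18.9% and 39.8% had a site, and no class was tested against these shares. STAT5B encodes a transcription factor, and ARAF and MAP2K2 encode kinases of the MAP kinase pathway. The double-knockout sites of STAT3, STAT5A and STAT5B are partly the same ones, since 2 lie in the windows of all 3 genes.

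No site overlapped a promoter window of these genes. RefSeq promoter windows, 250 bases before to 50 after an annotated start, were on hand for 51 of the 58 receptor genes, 7 of the 8 among them, and for 59 of the 69 signalling genes, and 0 of these held a site in either list. Over all 35116 windows, 0.0968% overlapped a wild-type and 0.222% a double-knockout site, rates that would give 0.171 and 0.393 for the 177 windows of both gene lists.

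By the number of sites in the window in both lists, 12 other protein-coding genes equalled EGFR with 5 and 5. Closest to it in length were ZMIZ1, CACNA1I and NFIC, at 248, 119 and 110 kb. Inside the gene body they held 3 and 3, 4 and 3, and 2 and 2 sites, fewer than EGFR. ALK was equalled by 96 genes with 2 and 4, of which MYT1L, ZDHHC14 and BCAR3 were closest in length. The likeness is over 2 lists only.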

How the data were processed

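The submitters' processing notes name Bowtie2, MACS2, bedtools, deepTools and build hg38, whose primary coordinates GRCh38.p14 shares. Versions, settings, the control, the treatment of duplicates and the merging of both libraries of a genotype are not stated in these sources. Each list was matched to its genotype through the genotype word that its name shares with the sample titles. Per the labels' protocols, DNA was cut to 100 to 300 bp before labelling.

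The columns deposited are those of a MACS2 narrowPeak file without names. The deposited score was 10 times the −log10 q, rounded down, in 100% of rows. The deposited fold enrichment is a ratio with 1 added to both reads and background. The deposited −log10 p-values and −log10 q-values are the caller's, and the largest q was 0.0450 (wild type) and 0.0489 (double knockout). The deposited summit position was used for distances. These values are the authors' and were compared only within a list, except where paired sites are set side by side.

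Whole reads were recovered by solving the fold and the Poisson tail for a whole number, which returned the deposited −log10 p within 0.001 at 100% of sites. Scaling double-knockout reads by lowest backgrounds gave a divisor of 1.69, and by those per base pair of narrowest site 1.61. Sites were shared when they overlapped by at least 1 bp. Chromosome rates ran between the outermost annotated gene or site. Intervals are exact 95% Poisson or binomial intervals. Python 3.11.15 with pandas 2.3.3 and scipy 1.17.1 was used, and the code was tested on simulated data.

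The 8 genes, the kinase and signalling lists and the other rules were chosen with earlier results of these data known. Named were the 8 genes, genes holding their sites, and the 5 other receptor genes and 5 signalling genes with the most sites (ties in alphabetical order, which left out NRG2 with 0 and 4). Named too were receptor genes with more wild-type sites, and the genes nearest EGFR and ALK by counts and length. LMTK3, EPHA10, RASGEF1A, MST1R, LTK, TYRO3, STAT3 and STAT5A were named after their values were seen. All 127 listed symbols were found in the gene table. The values of 1 receptor gene that these rules name are not reported here, though it is counted among the 58.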

Additional observations from a re-analysis of the deposited data

How the results depend on the processing

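Over 17 results, 97 alternatives were run, and 80 of them stayed within 1.5 times the count, or within the 95% counting interval of the share or ratio. With only sites of −log10 q of at least 5, the 8 genes had 4 wild-type sites, EGFR 3 and ALK 1 (2 in the double knockout), wild-type sites were found at 12 receptor tyrosine kinase genes and 6 signalling genes, and 100% of wild-type sites at the 8 genes were shared, as they were without ALK (100%). That share fell to 57.1% when overlaps had to cover 50% of both sites and to 50.0% without EGFR, from 85.7%. The double-knockout share was 33.3% under the first of these. Inside gene bodies alone, 10 and 20 receptor tyrosine kinase genes and 6 and 14 signalling genes had a wild-type and a double-knockout site. With windows of 100 kb, 20 signalling genes had a wild-type site. Without EGFR the 8 genes had 2 wild-type and 7 double-knockout sites, and 14.3% of the latter were shared. At the 6 shared places the median ratio of double-knockout over wild-type reads was 0.881, and with unscaled reads 1.49. No alternative changed the EGFR count in the double knockout by over 1.5 times. No paired analysis was possible because each genotype has 1 list, which for the same reason allowed no leaving out of a library. A rate without 5 Mb at each chromosome end, chosen after seeing the data, raised the ratio of listed wild-type sites to that rate from 12.1 to 18.5 at EGFR and from 2.31 to 3.33 at ALK. At wild-type depth the 6 unshared double-knockout sites had 6.50 to 11.8 reads. The fewest reads of a listed wild-type site were 6, over all backgrounds of that list. At the median wild-type background of the ALK sites 8 reads reach the lowest −log10 p of that list, a number within this range. The part of depth in the absence of these 6 sites from the wild-type list was not tested.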
